A study of Mus musculus with 24 samples.

Results

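The TGF-beta and PDGF ligands and receptors measured here are 10 genes, namely the TGF-beta ligands Tgfb1, Tgfb2 and Tgfb3, their receptors Tgfbr1 and Tgfbr2, the PDGF ligands Pdgfa, Pdgfb and Pdgfc, and the PDGF receptors Pdgfra and Pdgfrb. They were taken by symbol from a table of 33019 gene identifiers, all 10 were found in it, and all 10 passed the filter on low counts that left 15851 genes. The table holds RNA counts of whole mouse liver from 24 libraries. The mice were C57BL/6J, 2 months old and of 6 genotypes, with 4 libraries per genotype.

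The genotypes are named here as in the labels, each deletion being given there as hepatic. p62 TKO livers carry deletions of Atg5, Tsc1 and p62, and Nrf2 TKO livers carry deletions of Atg5, Tsc1 and Nrf2. DKO livers carry the Atg5 and Tsc1 deletions, Atg5 KO and TSC1 KO livers carry one of them, and WT livers are wild type. Atg5 is needed to form autophagosomes, Tsc1 restrains the growth kinase complex mTORC1, p62 (Sqstm1) is an autophagy receptor and Nrf2 (Nfe2l2) is a transcription factor of antioxidant genes. The labels name neither the promoter that drives the deletion nor the exons deleted, and nothing in them ties a library to its own animal. The p-values therefore rest on the spread between these samples, which may be technical.

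TGF-beta ligands are secreted in a latent complex, and once released they bind a receptor pair of TGFBR2 and TGFBR1, which phosphorylates SMAD proteins that enter the nucleus. PDGF ligands bind the receptor tyrosine kinases PDGFRA and PDGFRB, which relay through PI3 kinase, SRC and the RAS pathway. In liver both families are known for acting on stellate cells and portal fibroblasts, where TGF-beta drives matrix production and PDGF drives proliferation and migration.

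The promoters of Tgfb2 and Tgfb1 are shown because these were the ligands with the largest and the smallest increase among the 3 TGF-beta ligands in DKO livers. Each is the 250 bases before the gene's start, 5' to 3' on the gene's own strand, from RefSeq on GRCm38.p6. Capitals mark every match to the motifs searched on both strands, which were the SMAD box CAGAC, the E-box CACGTG, the TATA box TATAAA, the GC box GGGCGG, the AP-1 motif TGANTCA, the CRE TGACGTCA, the antioxidant response element TGACNNNGC and the TEAD motif GGAATG. None of the matches overlap.
Tgfb2, chr1:186705990-186706239, minus strand: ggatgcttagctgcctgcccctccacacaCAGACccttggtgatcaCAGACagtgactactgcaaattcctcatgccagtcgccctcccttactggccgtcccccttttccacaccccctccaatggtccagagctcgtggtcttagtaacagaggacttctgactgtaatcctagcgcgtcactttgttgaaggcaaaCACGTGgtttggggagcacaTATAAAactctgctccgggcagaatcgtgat
Tgfb1, chr7:25686752-25687001, plus strand: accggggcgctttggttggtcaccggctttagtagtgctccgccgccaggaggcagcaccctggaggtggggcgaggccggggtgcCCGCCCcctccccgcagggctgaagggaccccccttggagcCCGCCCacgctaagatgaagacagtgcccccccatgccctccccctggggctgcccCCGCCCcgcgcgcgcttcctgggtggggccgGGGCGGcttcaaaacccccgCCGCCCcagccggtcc
The Tgfb2 window held 2 SMAD boxes, beginning 221 and 204 bases before the start, an E-box at 51 bases and a TATA box at 31 bases. The Tgfb1 window held 5 GC boxes and no match to the other motifs. Among 32851 windows of the same length, 42.2% held a SMAD box, 6.02% an E-box, 12.4% a TATA box and 32.7% a GC box, while 6.75% held the AP-1 motif, 1.55% the CRE, 10.2% the antioxidant response element and 12.6% the TEAD motif. These matches are descriptions of the sequence, and no binding was measured. An entry was found for 7 of the 10 genes. The Tgfb2 window overlaps the antisense gene Gm29491, which had 6 counts over the 24 libraries, against 7415 for Tgfb2.

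Library totals ran from 10494080 to 13057467 counts. Levels are CPM, a gene's count relative to the library total after scaling by TMM (trimmed mean of M-values), as mean ± SD over 4 libraries, and changes are log2 fold changes ± SE, the first genotype over the second. Every adjusted p is that of edgeR's quasi-likelihood test, adjusted by Benjamini-Hochberg over 15851 genes, and a gene was called at an adjusted p under 0.05. TMM factors were high in DKO libraries and low in WT libraries, so scaling matters: with total counts alone the median change of all genes in DKO against WT was 1.07, against 0.08 with TMM. Nfe2l2 stood at 11.7 ± 4.24 CPM in Nrf2 TKO and 113 ± 32.7 CPM in DKO livers. Sqstm1 stood at 456 ± 226 CPM in p62 TKO and 961 ± 157 CPM in DKO livers, with overlapping libraries. In WT livers Sqstm1 stood at 578 ± 78.5 CPM. Its level in p62 TKO livers overlapped that and was not called different (-0.34 ± 0.25, adjusted p = 0.267). Counts over all of Atg5 and Tsc1 did not show their deletions: Atg5 stood at 43.0 ± 4.27 CPM in libraries labelled Atg5 KO and 26.8 ± 3.75 CPM in WT, and Tsc1 at 31.0 ± 1.99 CPM in libraries labelled TSC1 KO and 35.1 ± 1.53 CPM in WT. All genotypes below are therefore as labelled.

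All 10 genes were higher in DKO than in WT livers, and in all 10 the 4 DKO libraries stood above the 4 WT libraries. Of all genes tested, 37.1% were called higher in that comparison, 32.3% lower and 69.3% in either direction, and the libraries did not overlap for 62.2%. The median change was 2.39 over the 10 genes and 0.08 over all genes. With total counts alone, calls over all genes numbered 11158 upward and 1767 downward (5873 and 5115 with TMM), and all 10 genes of the 2 families were called higher either way. Whether more cells of a type or more RNA per cell lies behind a level cannot be told apart in whole liver.

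**Figure D1:**
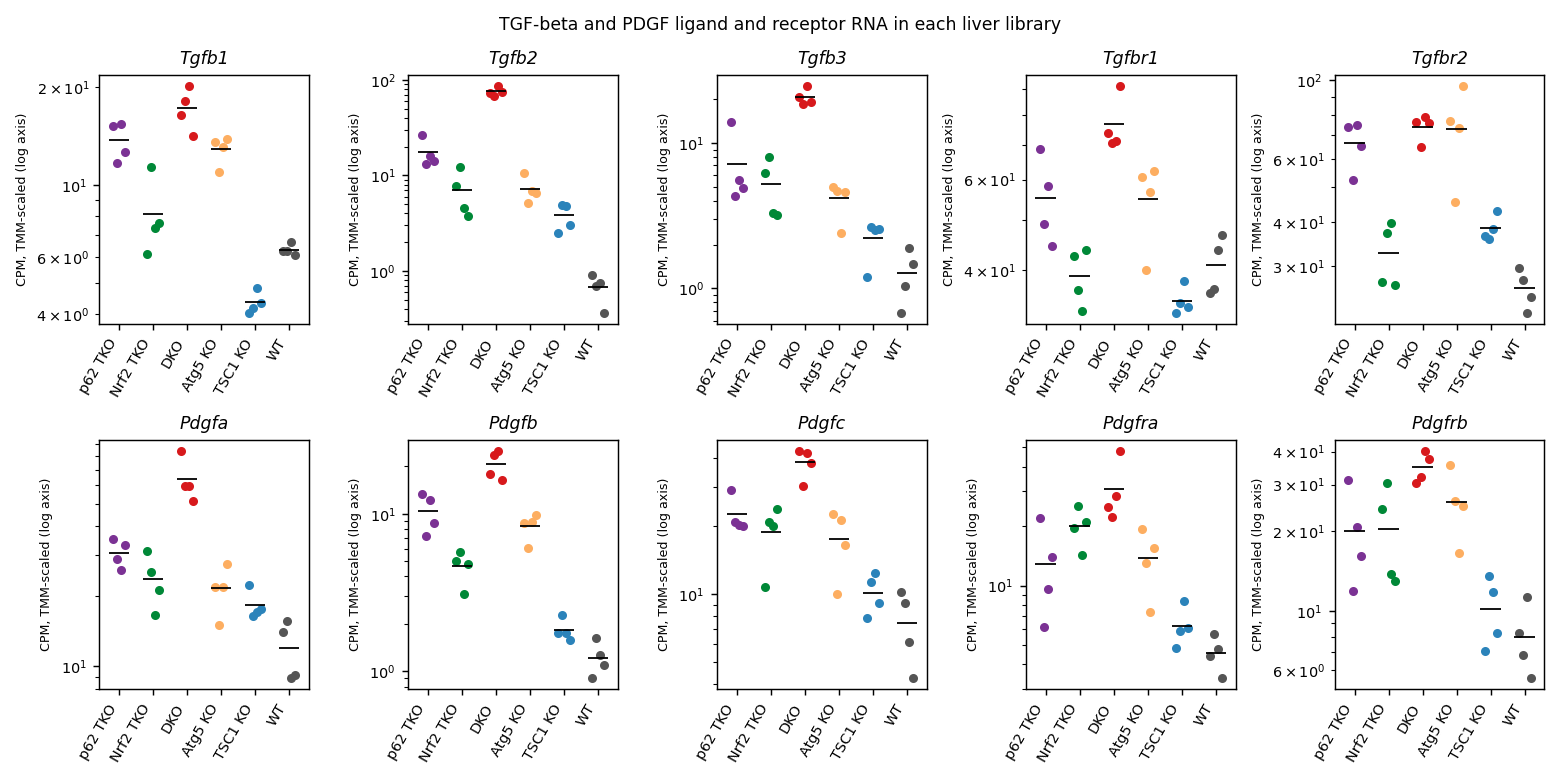
CPM on TMM-scaled totals (log axis) of the 10 genes in each of the 24 libraries, with the genotypes along the horizontal axis, a point for each library and a bar at the mean of 4. The DKO points of Tgfb2 lie between 68.2 and 86.7 CPM, above the points of all other genotypes.

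Tgfb2 (ENSMUSG00000039239, chromosome 1, 186622792 to 186705989 on GRCm38, minus strand), a ligand best known from embryonic development, changed most. It had 73.8, 68.2, 86.7 and 75.4 CPM in the DKO libraries, against 0.908, 0.693, 0.741 and 0.365 CPM in the WT libraries. Every DKO library stood far above every WT library, and the fold was 109.9 (6.78 ± 0.41, adjusted p = 6.72e-12). The size of that fold rests on only 3 to 8 counts in each WT library. Tgfb2 was also higher in both single deletions, averaging 7.28 ± 2.29 CPM in Atg5 KO (3.40 ± 0.42, adjusted p = 4.59e-06) and 3.81 ± 1.21 CPM in TSC1 KO livers (2.47 ± 0.45, adjusted p = 0.000794), against 0.677 ± 0.227 CPM in WT livers.

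Tgfb1 (ENSMUSG00000002603, chromosome 7, 25687002 to 25705077, plus strand), the main fibrogenic ligand of injured liver, moved far less. It had 16.4, 18.1, 20.2 and 14.1 CPM in DKO livers, against 6.24, 6.24, 6.67 and 6.09 CPM in WT livers (1.44 ± 0.16, adjusted p = 5.87e-08). It also stood higher in Atg5 KO livers, at 13.6, 10.96, 13.1 and 13.9 CPM (1.03 ± 0.17, adjusted p = 7.79e-05). In TSC1 KO livers it was lower than in WT livers in every library, at 4.04, 4.17, 4.83 and 4.33 CPM (-0.54 ± 0.18, adjusted p = 0.0388). That last call was lost with total counts alone (-0.41, adjusted p = 0.233), without the filter on low counts (-0.52, adjusted p = 0.129) and in DESeq2 (-0.52, adjusted p = 0.0588). It was also lost without any of 7 of the 8 libraries compared.

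Tgfb3 (ENSMUSG00000021253, chromosome 12, 86056745 to 86079041, minus strand), the third ligand, had 20.7, 18.6, 24.6 and 18.95 CPM in DKO livers, against 0.681, 1.04, 1.91 and 1.46 CPM in WT livers. The groups did not overlap, and the fold was 16.1 (4.01 ± 0.41, adjusted p = 1.28e-08). It was higher in Atg5 KO than in WT livers (1.70 ± 0.42, adjusted p = 0.00428), and in TSC1 KO livers its change was 0.81 ± 0.45 with overlapping libraries (adjusted p = 0.227).

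Levels of different genes can be set beside each other only per length. Per kilobase of exon, Tgfb1 was the highest TGF-beta ligand in 4 of 4 WT libraries and Tgfb2 in 4 of 4 DKO libraries. Tgfb2 made up 56.4% to 60.8% of the summed CPM per kb of the 3 ligands in DKO livers, against 3.71% to 9.82% in WT livers. The mean levels in DKO livers were 13.1 ± 1.34 CPM per kb for Tgfb2, 6.13 ± 0.817 for Tgfb3 and 3.41 ± 0.511 for Tgfb1. In WT livers they were 0.117 ± 0.0392 CPM per kb for Tgfb2, 0.376 ± 0.156 for Tgfb3 and 1.25 ± 0.0496 for Tgfb1. With the length of the longest coding transcript in place of all exons, a choice made after the data were seen, the leading ligand was the same in DKO and in WT livers. The order below Tgfb2 in DKO livers changed, with Tgfb1 at 7.90 ± 1.18 CPM per kb, above Tgfb3 at 6.13 ± 0.817. The share of Tgfb2 was then 49.1% to 55.0% in DKO and 2.16% to 5.46% in WT livers. By the transcript Tgfb1 led in 4 of 4 libraries of p62 TKO, Nrf2 TKO and TSC1 KO livers. By all exons it led in 3 of 4 in p62 TKO and in TSC1 KO livers, with Tgfb2 leading in the other one, and in 2 of 4 in Nrf2 TKO livers, with Tgfb3 leading in the other 2.

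**Figure D2:**
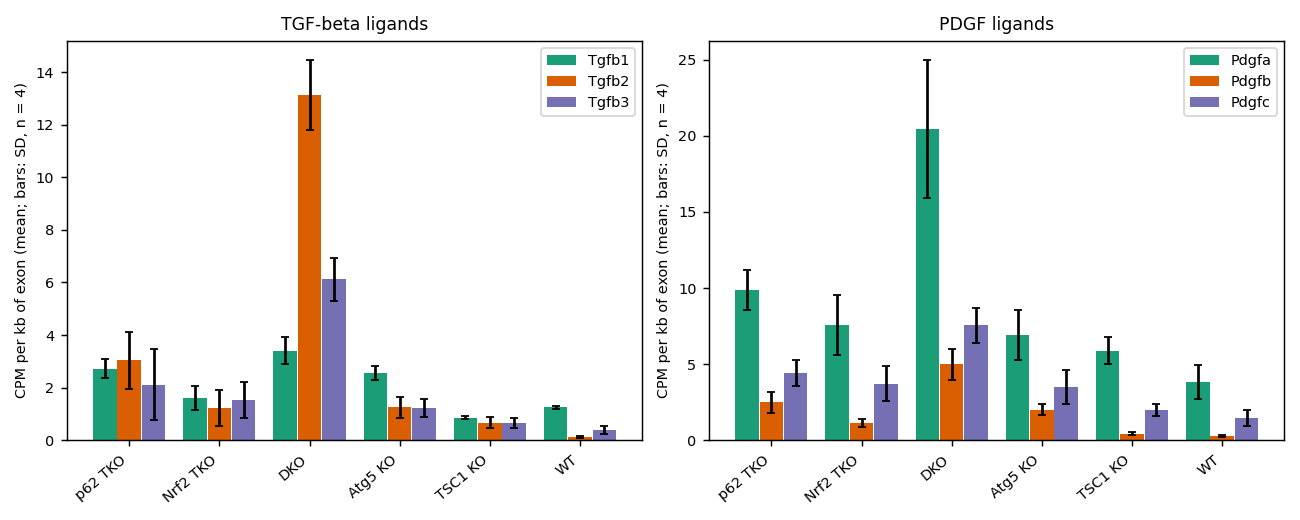
Levels of the TGF-beta and PDGF ligands in CPM per kb of exon by genotype, as bars at the mean of 4 libraries with SD. Tgfb2 is the highest TGF-beta ligand in DKO livers at 13.1 CPM per kb and the lowest in WT livers at 0.117 CPM per kb. Pdgfa is above Pdgfb and Pdgfc in every genotype.

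The 3 PDGF ligands all stood higher in DKO than in WT livers. Pdgfb (ENSMUSG00000000489, chromosome 15, 79995874 to 80014977, minus strand), which recruits pericytes and is a strong mitogen of stellate cells, had 17.996, 23.6, 25.0 and 16.3 CPM in DKO livers, against 0.908, 1.62, 1.27 and 1.10 CPM in WT livers. The lowest DKO library thus lay above the highest WT library by a wide margin (4.07 ± 0.26, adjusted p = 1.03e-11). In Atg5 KO livers it stood at 8.77, 6.11, 8.84 and 9.89 CPM, again clear of WT livers (2.77 ± 0.26, adjusted p = 1.32e-07).

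Pdgfa (ENSMUSG00000025856, chromosome 5, 138976014 to 138997370, minus strand), a ligand of PDGFRA, had 84.2, 59.7, 59.9 and 51.3 CPM in DKO livers, against 14.1, 15.6, 8.89 and 9.13 CPM in WT livers (2.42 ± 0.22, adjusted p = 1.64e-09). DKO library 1 was the highest, and no DKO library reached down to the WT libraries. Per kilobase Pdgfa was above Pdgfb and Pdgfc in all 24 libraries, by either length. The ligand Pdgfd was not ranked per length. The gene 6330403L08Rik lies opposite Pdgfa and shares 813 exon bases, and whether the counting used strand is not stated in the labels. That gene had 881 counts over the 24 libraries, against 9526 for Pdgfa.

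Pdgfc (ENSMUSG00000028019, chromosome 3, 81036416 to 81214040, plus strand), a ligand that must be cleaved to become active, had 43.1, 30.2, 42.4 and 38.0 CPM in DKO livers, against 10.2, 9.12, 6.14 and 4.26 CPM in WT livers (2.37 ± 0.28, adjusted p = 8.92e-08). The groups did not overlap. Atg5 KO livers, at 22.7, 10.1, 21.3 and 16.6 CPM, overlapped WT livers through library 2, although the gene was called higher (1.25 ± 0.27, adjusted p = 0.00156).

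Among the receptors, those of PDGF changed more than those of TGF-beta in DKO against WT livers. Pdgfra (ENSMUSG00000029231, chromosome 5, 75152292 to 75198215, plus strand), which binds most PDGF ligands, had 25.1, 22.1, 28.4 and 47.8 CPM in DKO livers, against 4.42, 5.66, 4.76 and 3.41 CPM in WT livers (2.75 ± 0.35, adjusted p = 4.30e-07). Pdgfrb (ENSMUSG00000024620, chromosome 18, 61045150 to 61085061, plus strand), the receptor of PDGF-B and a marker of stellate cells and pericytes, had 30.4, 32.0, 40.1 and 37.4 CPM in DKO livers, against 8.28, 6.81, 11.3 and 5.60 CPM in WT livers (2.12 ± 0.32, adjusted p = 4.21e-06). Neither receptor's DKO libraries overlapped its WT libraries. Per kilobase of exon Pdgfrb was above Pdgfra in every library of every genotype, but by transcript length in 3 of 4 DKO libraries and 3 of 4 Nrf2 TKO libraries.

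Tgfbr2 (ENSMUSG00000032440, chromosome 9, 116084293 to 116175360, minus strand), the receptor that binds the ligand first, had 76.3, 65.1, 78.8 and 75.6 CPM in DKO livers, against 29.7, 27.5, 22.2 and 24.6 CPM in WT livers (1.51 ± 0.18, adjusted p = 8.80e-08). It stood just as high in Atg5 KO livers, at 76.6, 45.5, 73.3 and 96.5 CPM (1.49 ± 0.18, adjusted p = 2.45e-06 against WT). Tgfbr1 (ENSMUSG00000007613, chromosome 4, 47353222 to 47414931, plus strand), the kinase that phosphorylates SMAD2 and SMAD3, had 73.9, 70.7, 71.4 and 91.3 CPM in DKO livers, against 36.1, 36.7, 43.7 and 46.8 CPM in WT livers (0.91 ± 0.15, adjusted p = 7.45e-06). The groups did not overlap for either gene, and Tgfbr1 had the smallest change of the 10 genes.

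The single deletions were set against WT to ask which of them went with these levels. In Atg5 KO livers all 10 genes were called higher (18.6% of all genes were, with 11.3% lower and 29.9% in either direction), with a median change of 1.54 over the 10 genes and -0.003 over all genes. The libraries did not overlap for 7 of the 10, against 27.8% of all genes, the exceptions being Pdgfa, Pdgfc and Tgfbr1. Tgfbr1 had the smallest change (0.43 ± 0.15, adjusted p = 0.0295), and its call was lost without any of 5 libraries. In TSC1 KO livers 3 of the 10 were called, 2 higher and 1 lower (8.79% and 7.6% of all genes, 16.4% in either direction). The libraries did not overlap for 4 of the 10, against 23.4% of all genes. The 3 called genes were Tgfb2, Tgfb1 as above, and Tgfbr2 (0.56 ± 0.18, adjusted p = 0.0328), and without any of TSC1 KO replicates 1, 2 or 4 or WT replicate 3 only Tgfb2 was called. Pdgfa stood higher in all 4 TSC1 KO libraries but missed the threshold (0.62 ± 0.22, adjusted p = 0.0544), which it passed with total counts alone (0.75, adjusted p = 0.0479) and in DESeq2 (0.64, adjusted p = 0.0309). With total counts alone all genes split into 5719 higher and 349 lower in Atg5 KO livers and into 1851 higher and 628 lower in TSC1 KO livers, against 2944 and 1794, and 1393 and 1205, with TMM.

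**Figure D3:**
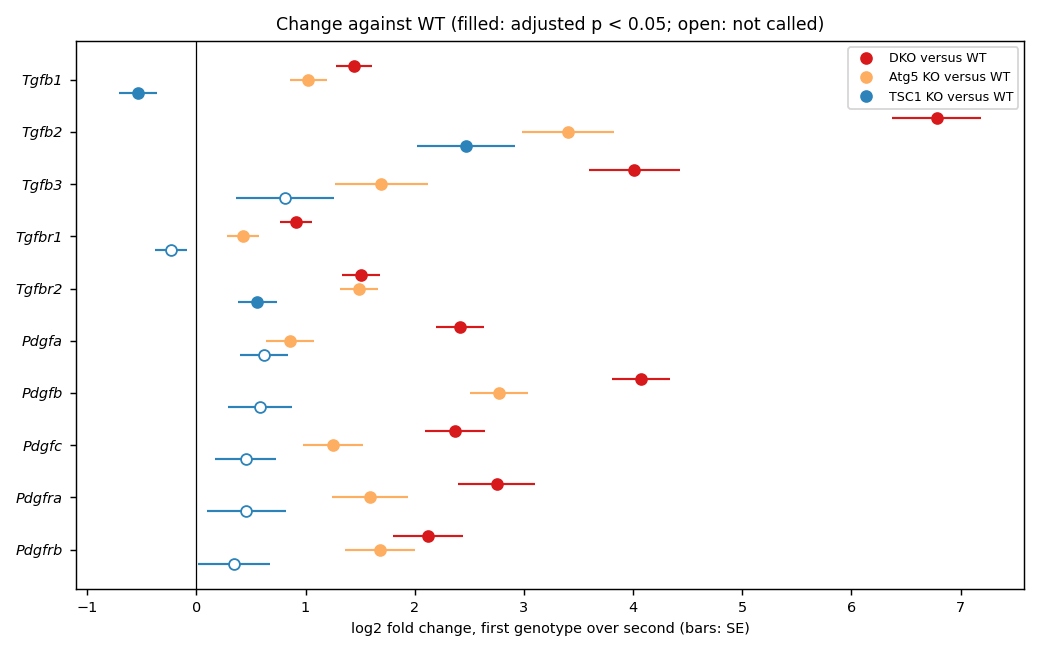
Log2 fold changes ± SE of the 10 genes in DKO, Atg5 KO and TSC1 KO livers against WT livers, filled where the adjusted p was under 0.05 and open otherwise. All 10 points are filled for DKO and for Atg5 KO, and 3 for TSC1 KO, of which Tgfb1 lies below 0.

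Whether the change in DKO livers differed from the sum of the single changes on the log2 scale was tested as an interaction. It was called positive for 4 of the 10 genes and called negative for none, against 15.5% and 19.3% of all genes (34.8% in either direction). The 4 were Tgfb1 (0.95 ± 0.23, adjusted p = 0.00289), Tgfbr1 (0.71 ± 0.21, adjusted p = 0.00938), Pdgfa (0.94 ± 0.30, adjusted p = 0.0178) and Tgfb3 (1.51 ± 0.58, adjusted p = 0.0458). For Tgfb1 the DKO change of 1.44 stood beside single changes of 1.03 in Atg5 KO and -0.54 in TSC1 KO livers. The Pdgfa term was lost without DKO replicate 1 (0.74, adjusted p = 0.0559), Atg5 KO replicate 2, WT replicate 1 or WT replicate 2, and the Tgfb3 term without any of 14 of the 16 libraries. With total counts alone 6 genes had a positive term. Over the alternatives other than leaving out a library, 4588 to 7304 of all genes were called, against 5517 with TMM and all libraries. The Tgfbr2 term was negative and missed the threshold (-0.54 ± 0.24, adjusted p = 0.0912), which it passed with only the groups compared (-0.61, adjusted p = 0.0493), without Atg5 KO replicate 2 (-0.77, adjusted p = 0.00592) and without WT replicate 1 (-0.68, adjusted p = 0.0474). For Tgfb2 the term was 0.91 ± 0.59 (adjusted p = 0.253), so its increase in DKO livers was not told apart from the sum of the single ones. Pdgfrb had a term of 0.09 ± 0.44 (adjusted p = 0.893).

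DKO livers were also set against each single deletion, with the same DKO libraries in every such comparison. Against TSC1 KO livers all 10 genes were higher in DKO livers and none overlapped. Of all genes 36.6% were higher, 30% lower and 66.7% either, and 63.5% did not overlap. Against Atg5 KO livers 8 were higher and 8 did not overlap. Of all genes 29.2% were higher, 27.3% lower and 56.5% either, and 51.8% did not overlap. The 2 not called against Atg5 KO livers were the receptors Tgfbr2 (0.02 ± 0.17, adjusted p = 0.935) and Pdgfrb (0.44 ± 0.30, adjusted p = 0.214), and both were called higher with total counts alone (0.62 and 1.06). Tgfb2 was again the largest change (3.38 ± 0.31, adjusted p = 6.87e-09), while the Tgfb1 call (0.42 ± 0.16, adjusted p = 0.0262) was lost without DKO replicate 2, DKO replicate 3 or Atg5 KO replicate 2 (adjusted p = 0.068, 0.117 and 0.154) and the Tgfbr1 call without Atg5 KO replicate 2 (0.29, adjusted p = 0.0767).

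The triple knockouts were set against DKO to ask what a further loss of p62 or Nrf2 went with, and both use the same DKO libraries. In p62 TKO livers 8 of the 10 genes were lower and none higher than in DKO livers (21.5% of all genes were lower, 22.3% higher and 43.8% either), and 7 did not overlap (43.2% of all genes). In Nrf2 TKO livers 9 were lower and none higher (29.2% of all genes were lower, 26.7% higher and 55.9% either), and 9 did not overlap (45.9% of all genes). The median change of the 10 genes was -0.90 in p62 TKO and -1.13 in Nrf2 TKO livers, and that of all genes was -0.02 and -0.05. With total counts alone all 10 genes were called lower in either comparison, while all genes split into 1624 higher and 7544 lower in p62 TKO and 1826 higher and 9483 lower in Nrf2 TKO livers.

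Tgfb2 fell furthest in both. It had 26.8, 13.3, 16.1 and 14.1 CPM in p62 TKO livers (-2.11 ± 0.29, adjusted p = 5.04e-06) and 7.82, 12.3, 4.55 and 3.77 CPM in Nrf2 TKO livers (-3.40 ± 0.31, adjusted p = 8.42e-09), against at least 68.2 CPM in every DKO library. Neither group overlapped DKO livers. Both stayed above WT livers, by 4.67 ± 0.41 in p62 TKO (adjusted p = 1.23e-08) and 3.38 ± 0.42 in Nrf2 TKO livers (adjusted p = 3.68e-06).

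Pdgfb had 13.4, 7.24, 12.2 and 8.80 CPM in p62 TKO livers and 5.05, 5.72, 3.10 and 4.83 CPM in Nrf2 TKO livers, all below the lowest DKO library at 16.3 CPM. It was lower by log2 -0.99 ± 0.21 in p62 TKO (adjusted p = 0.000534) and -2.14 ± 0.22 in Nrf2 TKO livers (adjusted p = 4.00e-08). Tgfb3 was lower by -1.53 ± 0.34 in p62 TKO (adjusted p = 0.000933) and -1.99 ± 0.35 in Nrf2 TKO livers (adjusted p = 4.84e-05). In p62 TKO livers its library 1 stood apart at 13.9 CPM, with the others between 4.29 and 5.52 CPM.

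Of the other genes, Pdgfa had 35.1, 28.9, 25.9 and 33.3 CPM in p62 TKO livers (-1.05 ± 0.20, adjusted p = 0.000242) and 31.2, 25.4, 16.6 and 21.3 CPM in Nrf2 TKO livers (-1.43 ± 0.21, adjusted p = 4.09e-06), all below the DKO libraries. Pdgfc had 29.0, 20.9, 20.2 and 20.2 CPM in p62 TKO livers (-0.77 ± 0.25, adjusted p = 0.0171) and 10.8, 20.96, 20.1 and 23.9 CPM in Nrf2 TKO livers (-1.02 ± 0.26, adjusted p = 0.00175). It too stayed below its lowest DKO library, at 30.2 CPM. The receptor kinase Tgfbr1 was lower by -0.48 ± 0.14 in p62 TKO (adjusted p = 0.0095) and -0.98 ± 0.15 in Nrf2 TKO livers (adjusted p = 5.48e-06).

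Tgfb1 had 15.2, 11.7, 15.4 and 12.6 CPM in p62 TKO livers, which overlapped the DKO libraries, and 6.14, 11.4, 7.36 and 7.63 CPM in Nrf2 TKO livers, which did not. Tgfbr2 had 74.0, 52.6, 74.8 and 65.3 CPM in p62 TKO and 27.1, 37.2, 39.7 and 26.6 CPM in Nrf2 TKO livers, with the same pattern of overlap. Pdgfra had 21.9, 6.17, 9.64 and 14.02 CPM in p62 TKO livers, all below the lowest DKO library at 22.1 CPM, though library 1 only just. Its levels in Nrf2 TKO livers, at 19.6, 25.2, 14.2 and 20.96 CPM, overlapped the DKO libraries. In p62 TKO livers the genes that did not pass were Tgfb1 (-0.32 ± 0.16, adjusted p = 0.0975) and Tgfbr2 (-0.15 ± 0.17, adjusted p = 0.502), which both fell in Nrf2 TKO livers (Tgfb1 -1.07 ± 0.16, adjusted p = 5.70e-06; Tgfbr2 -1.18 ± 0.17, adjusted p = 4.97e-06). In Nrf2 TKO livers it was Pdgfra (-0.62 ± 0.31, adjusted p = 0.0963), which fell in p62 TKO livers (-1.25 ± 0.32, adjusted p = 0.00295). The Pdgfrb calls (-0.80 ± 0.30 in p62 TKO, adjusted p = 0.0322, and -0.78 ± 0.30 in Nrf2 TKO, adjusted p = 0.0313) were lost without several single libraries. Without p62 TKO replicate 2, only 5 genes were called lower in p62 TKO livers. Leaving out each library in turn, 5946 to 6995 of all genes were called in that comparison, against 6946 with all libraries.

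**Figure D4:**
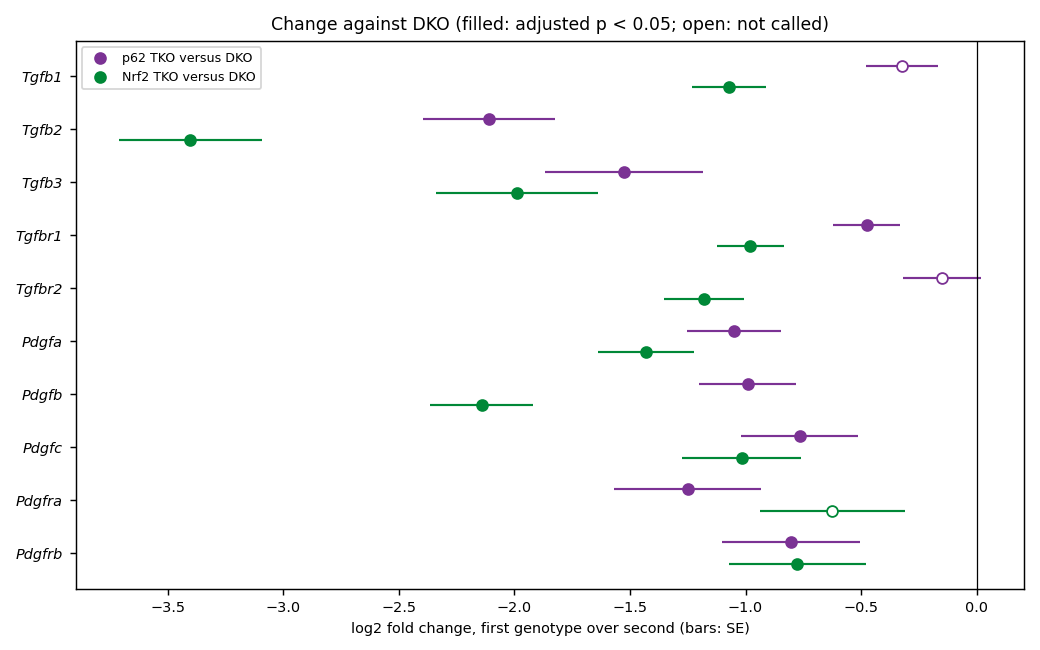
Log2 fold changes ± SE of the 10 genes in p62 TKO and Nrf2 TKO livers against DKO livers, filled where the adjusted p was under 0.05. Every point lies below 0, and Tgfb2 lies lowest, at -2.11 in p62 TKO and -3.40 in Nrf2 TKO livers.

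The difference between the triple knockouts was tested directly. In p62 TKO livers 5 of the 10 genes were higher than in Nrf2 TKO livers, against 10.4% of all genes, and none was lower, against 7.11% (17.5% in either direction). They were Tgfb2 (1.29 ± 0.30, adjusted p = 0.00441), Pdgfb (1.15 ± 0.22, adjusted p = 0.00105), Tgfbr2 (1.03 ± 0.17, adjusted p = 0.000327), Tgfb1 (0.75 ± 0.16, adjusted p = 0.00247) and Tgfbr1 (0.50 ± 0.15, adjusted p = 0.0187). The libraries did not overlap for 5 of the 10 genes, the same 5, against 18.4% of all genes. The change was 1.29 for Tgfb2 also when only those libraries were fitted, but 3 genes were then called, without Tgfb2 and Tgfbr1. Pdgfra did not pass (-0.63 ± 0.32, adjusted p = 0.189), and without p62 TKO replicate 1 it was lower in p62 TKO livers (-1.01, adjusted p = 0.039).

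Against WT all 10 genes were higher in p62 TKO livers (28% of all genes were, with 22.9% lower and 50.9% either), and 9 did not overlap (47% of all genes). The Tgfbr1 call (0.44 ± 0.15, adjusted p = 0.0158) was lost without p62 TKO replicate 1 (0.31, adjusted p = 0.0905) or WT replicate 2 (0.34, adjusted p = 0.0795). In Nrf2 TKO livers 7 were higher (22.4% of all genes were, with 17.1% lower and 39.5% either), and 7 did not overlap (29.7% of all genes). The 3 not called in Nrf2 TKO livers were Tgfb1 (0.37 ± 0.17, adjusted p = 0.083), Tgfbr2 (0.33 ± 0.18, adjusted p = 0.142) and Tgfbr1 (-0.07 ± 0.15, adjusted p = 0.741). With total counts alone Tgfb1 and Tgfbr2 passed there too.

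Other genes of the pathways were read in lists, whose counts in DKO against WT stand beside 37.1% of all genes higher and 32.3% lower. In the latent complex and activation list 10 of 13 were higher and 1 lower, with Ltbp3, which tethers latent TGF-beta to matrix, at 4.34 ± 0.29 and the integrin subunits Itgb8 and Itgb6, which release TGF-beta from its latent form, at 5.41 ± 0.49 and 5.43 ± 0.56. Among SMADs and feedback genes 11 of 13 were higher and 1 lower, with the inhibitors Pmepa1 at 3.63 ± 0.34 and Smad7 at 1.34 ± 0.21. Among TGF-beta response genes 16 of 18 were higher and 1 lower, with the collagen chain Col1a1 at 3.80 ± 0.36, the matricellular gene Ccn2 at 4.29 ± 0.40, Timp1, an inhibitor of matrix proteases, at 4.93 ± 0.42 and the cell-cycle inhibitor Cdkn2b at 5.17 ± 0.50. The single lower gene of each of these lists was not called lower with total counts alone. The summed level of the response genes overlapped, at 1576 to 2081 CPM in DKO and 1436 to 2659 CPM in WT livers. Ltbp2 belongs to both the response list and the latent complex and activation list. Of the co-receptors 3 of 6 were higher and none lower.

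Of the other PDGF genes 3 of 7 were higher and 1 lower. The higher ones were the ligand Pdgfd (4.0001 ± 0.40) and the proteases Plat (6.78 ± 0.60) and Plau (4.97 ± 0.55), known to activate PDGF-C and PDGF-D, and the lower one was the co-receptor Nrp1 (-2.78 ± 0.27). Of the PDGF signal relay genes 3 of 12 were higher and 5 lower, but 10 higher and none lower with total counts alone. The kinase Src was higher under either scaling (4.84 ± 0.33 with TMM). The list of other ligands of the superfamily also holds Fst, which is not itself a ligand. Of its genes 6 of 18 were higher, among them Bmp6 (4.66 ± 0.29) and Inhbb (5.16 ± 0.35). In the same list 8 were lower, among them the activin genes Inhba (-2.77 ± 0.26) and Inhbc (-4.07 ± 0.37). By total counts alone 8 were higher and 3 lower.

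**Figure D5:**
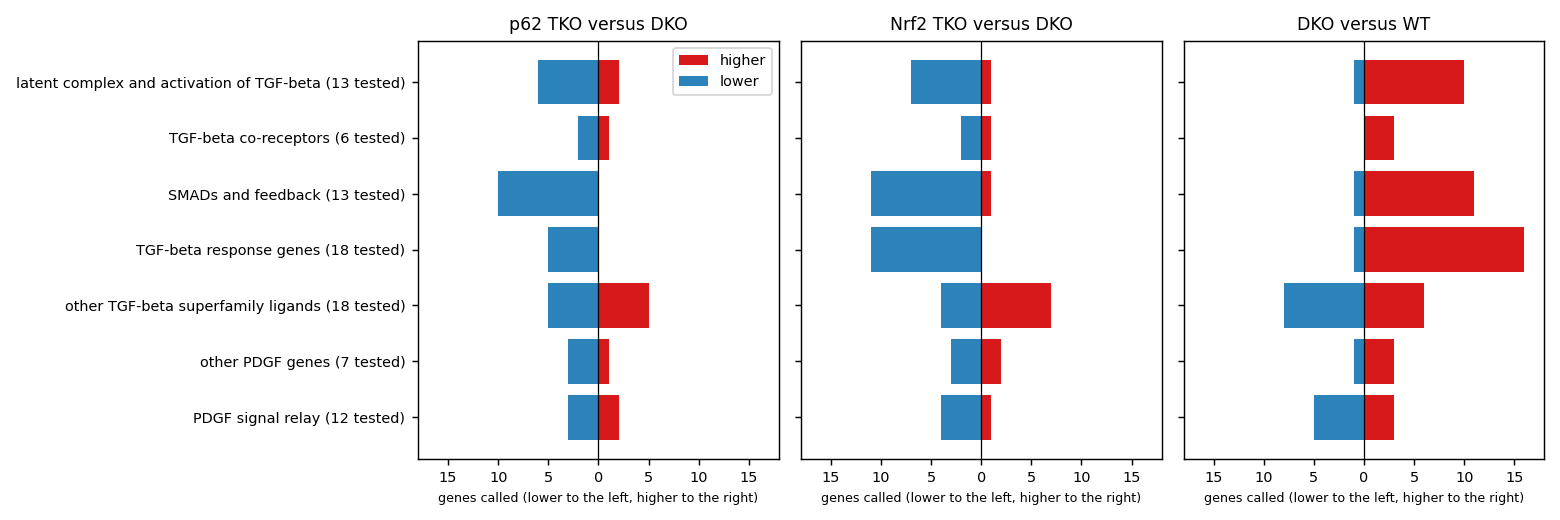
Number of genes called lower (bars to the left) and higher (bars to the right) in 7 pathway lists in p62 TKO against DKO, Nrf2 TKO against DKO and DKO against WT livers, with TMM scaling. The SMAD and feedback list has 11 higher in DKO against WT, and 10 lower in p62 TKO and 11 lower in Nrf2 TKO against DKO livers. With total counts alone the PDGF signal relay list turns to 10 higher and none lower in DKO against WT livers.

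Against DKO livers, 21.5% of all genes were lower in p62 TKO and 29.2% in Nrf2 TKO livers, and the list counts stand beside these shares. The SMAD and feedback genes were lower than in DKO livers for 10 of 13 in p62 TKO and 11 of 13 in Nrf2 TKO livers, where 1 was higher, Smad4 among the lower ones (-0.86 ± 0.12 in either). The response genes were lower for 5 of 18 in p62 TKO and 11 of 18 in Nrf2 TKO livers and higher for none, so the p62 TKO count lay near the share of all genes. The difference between these counts was not tested. Col1a1 stood at 99.1 ± 37.3 CPM in p62 TKO (-0.23 ± 0.31, adjusted p = 0.573) and 56.9 ± 28.0 CPM in Nrf2 TKO (-1.03 ± 0.31, adjusted p = 0.0082), against 116 ± 16.9 CPM in DKO livers. In the latent complex and activation list 6 of 13 were lower and 2 higher in p62 TKO livers, and 7 lower and 1 higher in Nrf2 TKO livers, with Ltbp3 at -2.103 ± 0.24 and -2.13 ± 0.25 in turn.

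The same lists were counted in the single deletions. Of all genes 18.6% were higher and 11.3% lower in Atg5 KO against WT livers, and 8.79% higher and 7.6% lower in TSC1 KO against WT livers. In Atg5 KO livers 14 of 18 response genes were higher and 1 lower, and 11 of 13 latent complex and activation genes were higher and none lower. In TSC1 KO livers 2 of 18 response genes were higher and 1 lower, near the shares of all genes, and 2 of 13 latent complex and activation genes were higher and none lower. Among SMADs and feedback genes 4 of 13 were higher and 1 lower in Atg5 KO livers, and 1 higher and 2 lower in TSC1 KO livers. The difference between the single deletions was not tested for the lists.

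Markers of some cell types moved with these genes and those of others did not, and their part in the results was not tested. In DKO against WT livers 7 of 7 cholangiocyte markers were higher, their summed level being 6652 to 9906 CPM in DKO and 76.6 to 117 CPM in WT livers. Of the portal fibroblast markers 7 of 8 were higher, at 535 to 692 CPM in DKO and 57.1 to 211 CPM in WT livers. All 6 hepatocyte markers were lower (5 with total counts alone), at 11142 to 16078 CPM in DKO and 73217 to 95799 CPM in WT livers. Of the stellate cell markers 4 of 10 were higher and 4 lower, with summed levels of 444 to 531 CPM in DKO and 238 to 413 CPM in WT livers. Of the macrophage markers 4 of 10 were higher and 5 lower, at 335 to 567 CPM in DKO and 198 to 348 CPM in WT livers. Endothelial markers overlapped, at 136 to 154 CPM in DKO and 90.4 to 193 CPM in WT livers, with 3 of 8 higher and 2 lower. Of the smooth muscle and pericyte markers 2 of 4 tested were higher, of the lymphocyte markers 3 of 6 were higher, of the platelet markers 1 of 3 was higher and 1 lower, and of the neutrophil markers none of 3 was called. Among the defining markers only the neutrophil genes Ly6g, in TSC1 KO and WT livers, and Elane, in DKO livers, were at 0 throughout a genotype, and the hepatocyte markers show the tissue as labelled.

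The markers moved in Atg5 KO against WT livers too, where all 10 ligand and receptor genes were higher. There 6 of 7 cholangiocyte markers, 5 of 8 portal fibroblast markers, 5 of 10 stellate cell markers and 5 of 10 macrophage markers were higher, with none lower in these lists. The summed stellate cell markers stood at 448 to 647 CPM in Atg5 KO and 238 to 413 CPM in WT livers. Of the hepatocyte markers 2 of 6 were lower and none higher. In TSC1 KO against WT livers 6 of 7 cholangiocyte markers and 1 of 8 portal fibroblast markers were higher, and no stellate cell marker was called.

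The same markers moved in the triple knockouts. All 7 cholangiocyte markers and 5 of 8 portal fibroblast markers were lower than in DKO livers in either triple knockout, and all 6 hepatocyte markers were higher. Of the 10 stellate cell markers none was higher and 2 lower in p62 TKO livers, and 5 were higher and 1 lower in Nrf2 TKO livers (3 higher and 2 lower with total counts alone). The macrophage markers summed to 523 to 867 CPM in p62 TKO and 193 to 285 CPM in Nrf2 TKO livers, which do not overlap, and Tgfb1 was higher in p62 TKO livers. In TSC1 KO against WT livers 8 of 10 macrophage markers were lower, at 68.7 to 148 CPM in TSC1 KO and 198 to 348 CPM in WT livers. Tgfb1 was at -0.54 there, a call that was lost under several alternatives. Other comparisons went either way. In Atg5 KO against WT livers 5 of 10 macrophage markers were higher and none lower, with Tgfb1 at 1.03. In p62 TKO against WT livers 5 of 10 were also higher and none lower, with Tgfb1 at 1.12. In DKO against TSC1 KO livers 5 were higher and 1 lower, with Tgfb1 at 1.98. In p62 TKO against DKO livers 5 of 10 were higher and none lower, with Tgfb1 at -0.32. In DKO against Atg5 KO livers 1 was higher and 5 lower, with Tgfb1 at 0.42. The macrophage markers split into 5 higher and 5 lower in Nrf2 TKO against DKO livers, with Tgfb1 at -1.07. Against WT, Nrf2 TKO livers had 1 higher and 1 lower, with Tgfb1 at 0.37.

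The genes whose 6 genotype means of centred log2 CPM lay nearest to each member, by root mean square difference, were Acvrl1, a type I receptor of the same superfamily, for Tgfb1 (0.08), F2rl1 for Tgfb2 (0.16), Afap1 for Tgfb3 (0.09), Glg1 for Tgfbr1 (0.06) and Rhpn2 for Tgfbr2 (0.13). For the PDGF genes they were Zfp287 for Pdgfa (0.08), Spats2l for Pdgfb (0.14), Myl12b for Pdgfc (0.08), Col8a2 for Pdgfra (0.06) and Rpl31-ps11 for Pdgfrb (0.10). By Pearson's r over the 24 libraries the nearest gene was the same for Tgfb1 alone.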

How the data were processed

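The authors deposited unnormalized counts for each Ensembl gene, made with Trimmomatic 0.36, HISAT2 2.1.0 and HTSeq on GRCm38, per the submitters' processing notes. Neither the annotation nor the strand setting is stated there. Per the labels' protocols, polyadenylated RNA of snap-frozen liver was sequenced from stranded libraries as single 75 bp reads. Symbols and exon lengths came from GENCODE M21 (32938 of 33019 identifiers matched), and promoter sequences from RefSeq GRCm38.p6.

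Counts were filtered with filterByExpr, scaled by TMM and fitted with edgeR 4.0.16 (R 4.3.3, limma 3.58.1) by the robust quasi-likelihood method, with 1 mean per genotype over 24 libraries and 18 residual degrees of freedom. The fit was tested on simulated data in which few genes changed, and in DKO only. That test does not cover the broad shift between the DKO and WT libraries. DESeq2 1.42.0 served as an alternative. Tables and figures used Python 3.11.15, pandas 2.3.3, numpy 2.4.6 and matplotlib 3.10.9. Likeness used log2 CPM with a prior count of 2.

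The 10 genes, the gene lists and the tests were chosen with earlier results of these data known. From each list the 4 genes with the smallest adjusted p and the 2 with the highest mean CPM in a comparison could be named. Alternatives were other scalings, DESeq2, no filter, a fit of just the groups in question, a block for the replicate number, and leaving out each library. Other lengths, and the lists under other scalings or without p62 TKO replicate 1, were added after seeing the data. All 24 libraries enter the reported values. Intervals for counting error alone were not needed, since replicates give the spread.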

Additional observations from a re-analysis of the deposited data

Results flagged for a closer look

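Of 60 groups of 4 libraries examined (10 genes in 6 genotypes), 5 held a library far from the other 3, and chance flags about 1 in 20 groups. Tgfb3 was 13.9 CPM in p62 TKO replicate 1, against 4.29 to 5.52 CPM in the other p62 TKO libraries. Pdgfc was highest in the same library, at 29.0 CPM, against 20.2 to 20.9 CPM. Tgfb3 was 2.39 CPM in Atg5 KO replicate 3, against 4.62 to 4.96 CPM in the others, and 1.203 CPM in TSC1 KO replicate 1, against 2.51 to 2.66 CPM. Tgfbr1 was 91.3 CPM in DKO replicate 4, against 70.7 to 73.9 CPM in the others.

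The effect of the Tsc1 deletion differed between livers with and without the Atg5 deletion for 4 genes by edgeR's quasi-likelihood interaction test. The difference on the log2 scale was 0.95 for Tgfb1, 1.51 for Tgfb3, 0.71 for Tgfbr1 and 0.94 for Pdgfa. Of all genes 34.8% were called in the same test. The Tgfb3 and Pdgfa calls were lost without any of several single libraries.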

How the results depend on the processing

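Of 110 combinations of a gene and a comparison, 84 were called; 14 of these lost the call under at least 1 alternative, none changed direction, and 5 uncalled ones changed sign. With only the groups compared, 1677 of all genes (2776 with all libraries) and 3 of the 10 genes (5 with all libraries) were called in p62 TKO against Nrf2 TKO, and 3691 of all genes (6262 with all libraries) in Nrf2 TKO against WT. Leaving out each library in turn gave 2 to 4 genes for the interaction, 1 to 3 for TSC1 KO against WT, 5 to 8 for p62 TKO against DKO, and 1724 to 2272 of all genes for TSC1 KO against WT, lowest without WT replicate 2. The cause was not tested. Among uncalled values, Pdgfrb in p62 TKO against Nrf2 TKO (-0.03) was 0.16 with total counts alone, 0.0071 without the filter and -0.3258 to 0.2333 with a library left out. Tgfbr1 in Nrf2 TKO against WT (-0.07) was 0.26 with total counts alone and -0.1399 to 0.0406 with a library left out. Tgfbr2 in DKO against Atg5 KO (0.02) was -0.0032 with only the groups compared and -0.2162 to 0.1784 with a library left out. With a library left out the Pdgfrb interaction (0.09) ran from -0.1818 to 0.2882, and Tgfb3 in p62 TKO against Nrf2 TKO (0.46) from -0.0876, without p62 TKO replicate 1, to 0.7636.

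The replicate numbers did not pair the libraries: deviations of same-numbered libraries correlated at -0.25 to 0.28, median -0.02, over 60 pairs. With the number as a block, the Tgfb3 interaction was 1.53 (adjusted p = 0.0549) and Pdgfa in TSC1 KO against WT 0.63 (adjusted p = 0.0291), and no other call among the 110 changed. Low counts limit Tgfb2, Tgfb3 and Pdgfb in WT livers most.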
